A study of Mus musculus with 9 samples.

Results

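Tumor-associated and alveolar macrophages, both sorted from tumor-bearing mouse lungs, were compared, using 6 of the 9 sequenced samples of the study. Tumor-macrophage (3 samples), the tumor-associated macrophages (TAMs), was set against Tumor-AM (3 samples), the alveolar macrophages (AMs) of tumor-bearing mice. Of 24346 gene symbols, 10410 were tested, namely those that reached an FPKM of 1 in 3 or more of these 6 samples. FPKM counts RNA fragments relative to the length of a transcript and to all mapped fragments of the sample, so that levels can be set side by side between genes. The question was which functions differ between the macrophage populations exposed to this tumor.

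All mice were C57BL/6 and, per the labels, at postnatal week 10. LLC (Lewis lung carcinoma) cells, derived from a lung tumor of the same strain, had been made to express the red fluorescent protein tdTomato and were placed in the left lung. Both populations were sorted from CD45+ autofluorescent lung cells. AMs were defined as Siglec-F+ F4/80+ CD11b- CD11c+ cells and TAMs as Siglec-F- F4/80+ CD11b+ cells. These surface proteins thus belong to the definition of the populations. Whether CD11b or CD11c was itself a sorting gate is not stated. The third group, Ctrl-AM, held AMs of vehicle-treated mice (3 samples) and serves below as a background level. The legend of the study gives 3 mice per population, but the labels do not say whether a Tumor-AM and a Tumor-macrophage sample with the same number came from one mouse, and p-values measure the spread between these samples only. The model is a transplanted cell line in one strain, and tdTomato RNA was not analysed here.

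AMs are resident macrophages that settle in the air spaces around birth, renew themselves there and clear surfactant, a lipid-rich film. They depend on the growth factor GM-CSF and on PPARγ, a lipid-sensing nuclear receptor. TAMs are mostly descended from blood monocytes, which need CSF1 and follow the chemokine receptor CCR2 into tissue. Macrophages present antigen, engulf dying cells, remodel matrix, store and burn lipid, and secrete chemokines and growth factors.

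Estimated depth was about 9800000 to 12100000 reads in the 6 samples, and the 3 Tumor-macrophage samples overlapped with the Tumor-AM samples. It was read from the FPKM worth of 1 read. If the deposited values were scaled between samples, it is an effective depth and not the number of mapped reads. The 50 most abundant genes took 41.2 to 42.5% of all FPKM in Tumor-AM and 41.5 to 46.1% in Tumor-macrophage. Distances between samples over all genes tested, on the log2(FPKM + 1) scale, were 37.5 to 40.6 within Tumor-AM, 39.2 to 44.4 within Tumor-macrophage and 109.1 to 117.1 between them.

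Of the 10410 genes, 4698 (45.1%) were past the threshold in a limma fit of log2(FPKM + 1), with an adjusted p under 0.05. The 2383 higher genes made up 22.9% of all genes tested and the 2315 lower genes 22.2%, and the log2 changes of all genes had a median of 0.0067. By the median ratio of gene levels the 6 samples were already level, with factors of 0.9945 to 1.0117. The small median change is therefore no finding. The balance of higher and lower genes depends on the scaling. It turned after rescaling to TPM, with 1990 higher and 2743 lower, and with quantile normalization, with 2243 higher and 2508 lower. Values of the groups did not overlap for 55.7% of the genes. Differences of this number are the background of every count below. Most were small, since 61.4% of the genes past the threshold changed by less than 2-fold, whereas 994 rose and 819 fell by at least 2-fold, and 80 rose and 54 fell by at least 16-fold. All changes are given as log2 of Tumor-macrophage minus Tumor-AM with the standard error (SE) of the fit, and the pseudocount of 1 makes the changes of low genes smaller than their true ratio.

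**Figure D1:**
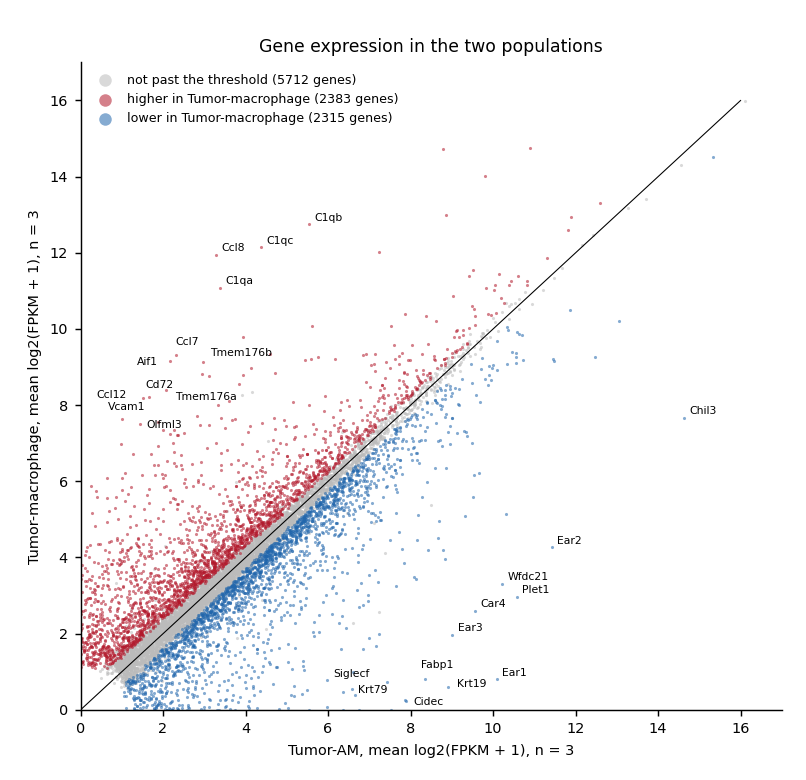
Each point is a gene tested (10410 in all), placed by its mean log2(FPKM + 1) in Tumor-AM (x axis) and Tumor-macrophage (y axis), n = 3 samples each, with the line of equal levels. The 12 labelled genes above the line include Ccl8 and the C1q genes, the 12 below it include Ear1, Cidec and Chil3, and grey points near the line were not past the threshold.

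Chemokine and complement genes were among the 12 largest increases, and AM identity genes among the 12 largest decreases. Ccl8, which encodes a chemokine for monocytes and lymphocytes, had 3.14, 10.3 and 18.3 FPKM in the 3 Tumor-AM samples and 4096, 3975 and 3735 FPKM in the 3 Tumor-macrophage samples. Every TAM sample lay far above every AM sample, and the log2 change of 8.67 ± 0.452 was the largest increase under the naming rule (limma adjusted p = 1.04e-06). Ctrl-AM samples had 0.806, 1.18 and 2.83 FPKM. Vcam1, an adhesion molecule for leukocyte integrins, rose from 1.01 ± 0.254 to 198 ± 13.5 FPKM (SD, n = 3), and Olfml3, a secreted matrix protein gene, from 1.82 ± 1.08 to 182 ± 32.8 FPKM. Aif1, the calcium-binding protein gene used as a marker of microglia and other macrophages, rose by 6.99 on the log2 scale. Tmem176a and Tmem176b, genes of membrane proteins of myeloid cells, rose by 6.34 and 6.18. These neighbours overlap on opposite strands of chromosome 6, from 48833818 to 48847071 in GRCm38, and since use of strand was not stated their reads cannot be fully told apart.

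In the opposite direction, Ear1, a ribonuclease gene of the eosinophil-associated family, had 1168, 1021 and 1081 FPKM in Tumor-AM and 0.711, 0 and 2.06 FPKM in Tumor-macrophage. Its log2 change of −9.29 ± 0.33 was the largest decrease (limma adjusted p = 1.25e-07). Krt19 and Krt79, both keratin genes, fell from 481 ± 52.6 to 0.533 ± 0.333 FPKM and from 238 ± 60.0 to 0.194 ± 0.0564 FPKM (SD, n = 3). Plet1, a surface protein gene of AMs and epithelial progenitors, had 1481, 1485 and 1596 FPKM in Tumor-AM and 9.32, 3.74 and 8.8 FPKM in Tumor-macrophage. Wfdc21, which encodes a secreted protein with a whey acidic protein domain, fell by 6.91 on the log2 scale and was again without overlap. Ear1, Ear2 and Ear3 are closely related copies, so the split of reads between them is uncertain, although each fell.

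The labels of both populations were checked against defining markers. Siglecf, whose product defined AMs, had 183, 167 and 164 FPKM in Tumor-AM and 0.663, 0.456 and 0.835 FPKM in Tumor-macrophage, and Itgam, the gene of CD11b, had 3.61, 4.46 and 4.52 and 134, 151 and 156 FPKM. Both followed the definition of the populations, and they are no findings. Adgre1, the gene of F4/80, was present in all 6 samples, at 115, 128 and 115 FPKM in Tumor-AM and 409, 321 and 442 FPKM in Tumor-macrophage. Of 34 AM identity and surface genes tested, 32 fell and 2 rose, with a median log2 change of −3.45. This list holds Siglecf and was chosen with earlier results of these data known, so its count is no independent check of the labels. Pparg, the nuclear receptor gene that AMs need, had 144, 135 and 140.3 FPKM in Tumor-AM and 12.8, 12.1 and 10.5 FPKM in Tumor-macrophage, a change of −3.46 ± 0.0953 (limma adjusted p = 3.03e-08), with 202 ± 15.9 FPKM in Ctrl-AM. Car4, a surface carbonic anhydrase gene, fell from 794 ± 329 to 5.08 ± 0.45 FPKM (SD, n = 3). The 2 members that rose were Fabp5, a fatty acid carrier gene, from 550.0 to 997 FPKM, and Car13, a cytosolic carbonic anhydrase gene, from 3.94 to 7.7 FPKM.

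Of 37 genes that mark monocyte-derived and interstitial macrophages, 35 rose and 2 fell, with a median of 2.69. This list holds Itgam, whose product belongs to the definition of TAMs, and was likewise chosen with earlier results known. Cx3cr1, the fractalkine receptor gene, had 0.731, 0.27 and 0.741 FPKM in Tumor-AM and 86, 46.8 and 73.6 FPKM in Tumor-macrophage. Folr2, a folate receptor gene of interstitial macrophages, rose from 0.244 ± 0.422 to 62.4 ± 29.9 FPKM, and Tmem119, known from microglia, from 0.354 ± 0.307 to 47.5 ± 6.69 FPKM (SD, n = 3). Ly6c2, the monocyte antigen gene, rose by 2.69, whereas Lyve1 and Cd163, markers of perivascular macrophages, reached means of 2.5 and 2.04 FPKM only. The 2 members that fell were Mertk and Clec4a3, with log2 changes of −1.38 and −0.47.

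Both populations could hold other cells, and markers fixed for them were examined beside these results. In bulk samples fewer cells of a type and less RNA per cell cannot be told apart. Of 11 B and plasma cell genes found, 7 were tested and 6 rose, and their summed FPKM, untested members included, was 4.52 to 13.4 in Tumor-AM and 37.5 to 99.6 in Tumor-macrophage. Cd79a had 2.78, 1.57 and 3.59 and 22.1, 10.9 and 18.3 FPKM in the respective samples, while Pax5 was at 0 in each Tumor-AM sample and at 0.18, 0 and 0.0801 FPKM in Tumor-macrophage. Of 13 dendritic cell genes tested, 9 rose (summed FPKM 115 to 122 against 377 to 411). Cd209a and Ly6d rose from 1.47 to 12.7 and from 3.59 to 19.4 FPKM, Ccr7 from 8.3 to 25.3 FPKM and Xcr1 from 0.368 to 1.96 FPKM, and Bst2 and Batf3, which also rose, are made by macrophages too. The defining gene Flt3 was too low to be tested but higher in each TAM sample, at 0.201, 0.0694 and 0.466 and 0.703, 0.761 and 1.11 FPKM, and Zbtb46, also untested, overlapped between the groups. Mast cell genes varied between the Tumor-macrophage samples, with Tpsb2 at 0, 20.4 and 4.01 FPKM and Cpa3 at 1.8, 6.96 and 3.73 FPKM, and were at or near 0 in Tumor-AM. Of the 3 eosinophil, basophil and mast cell genes tested, 2 rose and Siglecf fell. Of 10 T and NK cell genes tested, 4 rose, 1 fell and 5 were not past the threshold. Cd2 was the member that fell, from 438 ± 36.8 to 18.9 ± 8.45 FPKM (SD, n = 3), at a level in AMs far above that of Cd3e (1.15 FPKM) in the same samples. With the replicate number as a block, 7 of the 10 rose, Cd3e included (limma adjusted p = 0.0493, against 0.179 without the block). Cd4, which mouse macrophages can also express, rose from 0.528 to 13.6 FPKM.

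Markers of structural cells did not follow the TAM samples. None of 6 lung epithelial genes tested rose and 2 fell, and Sftpc, the surfactant protein C gene, had 23.8, 22.2 and 55.1 FPKM in Tumor-AM and 6.19, 64.1 and 10.8 FPKM in Tumor-macrophage. Of 8 fibroblast and smooth muscle genes 1 fell and 7 were not past the threshold, while 4 fell with the replicate block. The fibroblast sum of 1 Tumor-AM sample stood apart (32.4, 22 and 108 FPKM in Tumor-AM). Of 9 endothelial genes 3 fell and 1, Pecam1, rose. Of 8 neutrophil genes tested 3 rose, Mmp9 among them, 3 fell, Mmp8 among them, and 2 were not past the threshold. The summed FPKM of the neutrophil list was 171 to 223 in Tumor-AM and 136 to 217 in Tumor-macrophage. Elane, Ngp and Mpo, which define neutrophil precursors, were at or near 0. Of 3 tested red cell and platelet genes 1 rose, Pf4, a chemokine gene of platelets and macrophages, from 6.87 ± 1.8 to 466 ± 156 FPKM (SD, n = 3), while the platelet gene Ppbp had 0.309, 5.12 and 1.47 FPKM in Tumor-macrophage and Itga2b was at 0 in each of those samples. The part that these other cells have in the differences reported here was not tested.

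**Figure D2:**
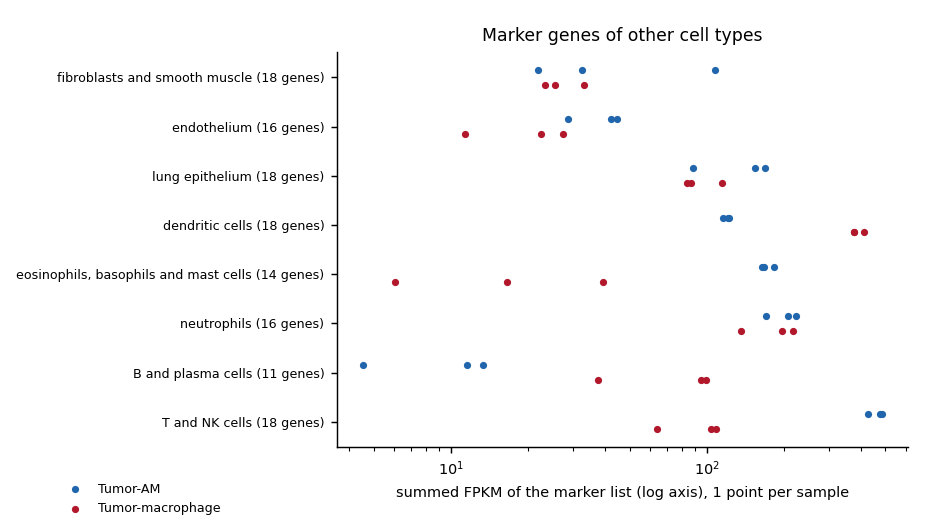
Summed FPKM (log x axis) of 8 marker lists of other cell types, 1 point per sample, 3 samples per group. B and plasma cell and dendritic cell sums were higher in Tumor-macrophage. The higher Tumor-AM sums of the T and NK and of the eosinophil, basophil and mast cell lists come from Cd2 and from Siglecf, whose product defined AMs.

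Transcription factors of the macrophage lineage split between the populations. Of 47 tested, 22 rose, 17 fell and 8 were not past the threshold. Maf, a leucine zipper factor gene of tissue macrophages, had 0.126, 0.163 and 0 FPKM in Tumor-AM and 5.47, 6.16 and 6.62 FPKM in Tumor-macrophage, a change of 2.69 ± 0.139 (limma adjusted p = 9.71e-07). Runx3 and Etv5 rose by 3.42 and 3.48, and the interferon regulatory factors Irf7, Irf5, Irf8 and Irf1 by 2.75, 1.99, 0.99 and 0.91. Hif1a, the oxygen-sensitive factor gene, rose by 1.21. On the AM side, Tcf7l2, a Wnt pathway factor gene, fell from 69.5 ± 6.47 to 10.1 ± 0.239 FPKM (SD, n = 3). Id1, Runx2 and Tfec changed by −2.33, −1.90 and −1.77, Bhlhe40 and Bhlhe41, which maintain AM self-renewal, by −1.31 and −1.42, and Rxra, the partner of PPARγ, by −1.27. Spi1, which encodes the general myeloid factor PU.1, fell slightly, with 314, 300.3 and 306 FPKM in Tumor-AM and 243, 254 and 222 FPKM in Tumor-macrophage (−0.36). Cebpa and Stat6 were not past the threshold, with log2 changes of −0.24 and −0.19.

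Most chemokine genes rose. Of 22 tested, 16 rose, 2 fell and 4 were not past the threshold, with a median of 2.46. Ccl2, Ccl7, Ccl12 and Ccl8, which encode ligands that draw CCR2+ monocytes and other leukocytes, lie in one cluster on chromosome 11 between 82035571 and 82116799 (GRCm38), and all 4 rose. Ccl7 had 2.05, 6.34 and 4.45 FPKM in Tumor-AM and 451, 819 and 682 FPKM in Tumor-macrophage, Ccl12 had 0.791, 4.62 and 1.34 and 185, 416 and 321 FPKM, and Ccl2 had 7.81, 14 and 12.3 and 189.5, 357 and 308 FPKM. The groups did not overlap for any of the 4. The interferon-induced T cell attractants Cxcl9 and Cxcl10 rose by 4.76 and 4.37, Ccl5 by 4.69, and Cxcl16, a membrane-bound ligand of CXCR6, from 25.6 ± 5.94 to 456 ± 27.1 FPKM (SD, n = 3). Cxcl13, the B cell attractant, was at 0.0906, 0 and 0 FPKM in Tumor-AM and 5.27, 18.1 and 11.9 FPKM in Tumor-macrophage. Of the neutrophil attractants, Cxcl1 and Cxcl2 rose by 0.84 and 0.45, calls that were lost in 2 of 15 and 4 of 15 alternative settings. The 2 that fell were Ccl6, abundant in AMs, from 8482 ± 979 to 1234 ± 404 FPKM, and Cx3cl1, the ligand of CX3CR1, from 16.5 ± 1.66 to 0.807 ± 0.406 FPKM (SD, n = 3). CX3CR1 and its ligand were thus higher in opposite populations.

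Chemoattractant receptors were divided. Of 22 tested, 13 rose and 7 fell. C3ar1, the receptor gene for complement fragment C3a, had 2.3, 2.75 and 2.98 FPKM in Tumor-AM and 172, 183 and 204 FPKM in Tumor-macrophage. Ccr2 rose by 2.95, S1pr1, a receptor gene for egress into lymph, by 3.05, and Cmklr1, the chemerin receptor gene, by 2.76. Receptors for bacterial formyl peptides went the other way. Fpr1 had 406, 509.8 and 459 FPKM in Tumor-AM and 14, 13.3 and 17 FPKM in Tumor-macrophage (−4.87 ± 0.118, limma adjusted p = 2.16e-08), and Fpr2, its neighbour on chromosome 17, fell by 2.89 on the log2 scale. Cxcr1 and Ccr1 changed by −2.51 and −0.80. C5ar1, the receptor gene for C5a, was abundant in both, at 334 ± 13.8 and 342 ± 47.3 FPKM (SD, n = 3), and was not past the threshold.

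Among complement genes 13 of 20 rose and 2 fell, the latter being the integrin chain genes Itgax and Itgb2. The 3 chains of C1q, the starter of the classical pathway, lie within 18.7 kb on chromosome 4 (136880129 to 136898803, GRCm38). C1qa had 8.21, 7.39 and 13.8 FPKM in Tumor-AM and 2232, 2206 and 2075 FPKM in Tumor-macrophage, C1qb had 37.5, 35.6 and 69.9 and 7051, 6789 and 6806, and C1qc had 18.6, 13.5 and 30.0 and 4559, 4429 and 4608 FPKM. The log2 changes were 7.70 ± 0.188, 7.21 ± 0.223 and 7.78 ± 0.23 (SE), with limma adjusted p values up to 5.43e-08. Ctrl-AM had 2.61 ± 1.22, 11.1 ± 2.16 and 5.52 ± 0.663 FPKM (SD, n = 3). The proteases that act with C1q did not rise to a like degree, with C1ra at 19.5 and 16 FPKM and not past the threshold and C1s1 at 0.657 and 1.59 FPKM (0.62, lost in 6 of 14 alternative settings). C3, the central component, and C4b rose by 1.86 and 2.95. Of the alternative pathway, Cfb and Cfp rose by 1.14 and 1.60.

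Antibody receptors rose with these. Of 31 genes for Fc receptors and their adaptors, 20 rose, 6 fell and 5 were not past the threshold. Fcrls, an Fc receptor-like gene, had 0.63, 0.715 and 1.72 FPKM in Tumor-AM and 119, 93.1 and 179 FPKM in Tumor-macrophage. Fcgr1, Fcgr2b, Fcgr4 and Fcgr3, the receptors for IgG, changed by 1.82, 1.19, 0.85 and 0.69. Lat2, an adaptor gene, and Ly86, which encodes MD-1, rose by 4.25 and 3.51. Fcgrt, the neonatal Fc receptor that recycles IgG, fell from 270.0 ± 22.1 to 119 ± 5.74 FPKM (SD, n = 3). The shared adaptor Tyrobp was abundant in both, at 4591 ± 167 and 4714 ± 291 FPKM (SD, n = 3), and not past the threshold, except with quantile normalization, where it was lower in TAMs (−0.65, limma adjusted p = 0.00111).

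MHC class II presents extracellular antigen to CD4+ T cells. Of 19 genes of this presentation, regulators and costimulators included, 14 rose and none fell (median 1.56). H2-Aa had 702, 288 and 501 FPKM in Tumor-AM and 9709, 6838 and 8364 FPKM in Tumor-macrophage, a change of 4.14 ± 0.288 (limma adjusted p = 5.28e-06). H2-Ab1 had 1316, 573 and 946 and 18707, 14175 and 16872 FPKM, and H2-Eb1 had 206, 92.4 and 172 and 4898, 3494 and 4198 FPKM. The highest Tumor-AM sample stayed below the lowest Tumor-macrophage sample for each. Ciita, the co-activator that class II genes require, rose from 1.14 ± 0.175 to 11.5 ± 3.6 FPKM (SD, n = 3). Cd74, the invariant chain gene, rose by 3.85 to 27665 ± 4327 FPKM, and Cd40 and Cd86, which costimulate T cells, by 4.67 and 2.46. The editors of the bound peptide rose less, with 1.72 for H2-DMb1 and 0.79 for H2-DMa. Rfx5, Rfxap and Rfxank, subunits of the factor that binds class II promoters, were not past the threshold (0.36, 0.29 and −0.16). The 8 class II genes tested (including H2-DM and H2-O) lie on chromosome 17 between 34092340 and 34316674 (GRCm38), and all rose. B cell and dendritic cell markers, which belong to cells that also make class II, rose in the same samples, and their part in this was not tested.

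Promoter sequences were read for genes that moved together, from the RefSeq windows of GRCm38.p6 (250 bases before to 50 after a start), which covered 8011 of the 10410 genes tested (77%). The Y box CTGATTGG, the inverted CCAAT element of class II promoters, was searched on both strands. Among the risen genes of the class II list, Ctss and Ifi30 included, 9 had a window and 3 of these held it. This compares with 4.7% of all genes with a window and 6.5% of those tested. Over all genes tested it was in 6.38% of the genes that rose, 6.97% of those that fell and 6.37% of those not past the threshold. It was also in 7 of the 22 fallen genes of fatty acid and sterol synthesis that had a window (31.8%). The stretches before the start are printed 5′ to 3′ on the strand of the gene, with the Y box in capitals, because the genes that carry it were among those that rose. They lie at chr17:34287824-34287924 (minus strand), chr17:34305755-34305862 (plus strand) and chr17:34092283-34092378 (plus strand) in GRCm38.p6.
H2-Aa: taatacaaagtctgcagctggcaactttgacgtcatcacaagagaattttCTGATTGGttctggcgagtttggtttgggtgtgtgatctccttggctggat
H2-Eb1: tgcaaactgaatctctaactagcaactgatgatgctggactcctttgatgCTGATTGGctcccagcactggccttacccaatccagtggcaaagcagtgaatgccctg
H2-Oa: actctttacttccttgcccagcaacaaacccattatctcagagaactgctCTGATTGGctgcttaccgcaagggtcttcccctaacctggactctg
The box ended 44 bases before the start in H2-Aa, 55 in H2-Eb1 and 39 in H2-Oa. H2-Oa rose less than the others, from 3.33 to 11.8 FPKM. A match is a description of letters and not evidence of binding.

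MHC class I presents peptides from within the cell to CD8+ T cells. Of 21 genes of this presentation, peptide processing and folding included, 18 rose and none fell (median 1.03). Tap1, the peptide transporter gene, had 15.8, 22 and 17.5 FPKM in Tumor-AM and 116, 121 and 94.2 FPKM in Tumor-macrophage. Nlrc5, the class I counterpart of Ciita, rose from 1.26 ± 0.353 to 7.76 ± 1.35 FPKM (SD, n = 3). The immunoproteasome genes Psmb9 and Psmb8 rose by 1.60 and 1.25, and B2m, the light chain gene, by 1.06 to a mean of 7940.3 FPKM. H2-K1 and H2-D1, the classical heavy chain genes, rose by 1.09 and 0.77, the latter lost in 1 of 15 alternative settings. H2-Q6 and H2-Q7 rose by 1.50 and 2.42, but are near-identical copies whose reads may be shared. Canx, a general folding factor of the endoplasmic reticulum, was not past the threshold (−0.20). The Y box was in the windows of 7 of the 16 risen genes that had one (43.8%), namely H2-K1, H2-D1, H2-Q6, H2-Q7, H2-T23, Tap1 and Psmb9, and Canx held it as well. Tap1 and Psmb9 are transcribed in opposite directions from a shared region, so their match may be the same letters.

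Interferon-stimulated genes rose nearly throughout. Of 35 tested, 34 rose and none fell, with a median of 2.12. Ifitm3, an antiviral membrane protein gene, had 37.7, 45.5 and 62.4 FPKM in Tumor-AM and 828, 1622 and 953 FPKM in Tumor-macrophage, a change of 4.49 ± 0.257 (limma adjusted p = 1.78e-06). Gbp2, the gene of a guanylate-binding protein, had 19.8, 33.8 and 22.6 FPKM in Tumor-AM and 224, 239.8 and 149.7 FPKM in Tumor-macrophage, and its neighbour Gbp3 had 6.25, 7.37 and 5.2 and 65.8, 65.4 and 55.3 FPKM. Isg15, a ubiquitin-like protein gene, rose from 6.86 ± 2.5 to 33 ± 9.46 FPKM (SD, n = 3), and Rsad2, the gene of viperin, from 1.59 ± 0.465 to 19.8 ± 7.08 FPKM. Irf9, which helps carry the signal to the nucleus, rose by 1.03. Usp18, a feedback inhibitor, rose by 3.10. Ddx58 was the member not past the threshold (0.14, limma adjusted p = 0.469). Ctrl-AM had 9.46 ± 2.75 FPKM of Gbp2 and 3.63 ± 0.887 FPKM of Isg15 (SD, n = 3). The receptor chains Ifnar1, Ifnar2 and Ifngr2 rose by 2.13, 1.26 and 1.42, while Ifngr1 was not past the threshold (0.32), except with the replicate block (limma adjusted p = 0.0205).

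The core of the interferon-stimulated response element, GAAANNGAA on either strand, was in the promoter windows of 19 of the 27 risen interferon genes that had one (70.4%). It was in 9.76% of all genes with a window, in 12.1% of all genes that rose, in 7.41% of those that fell and in 8.67% of those not past the threshold. Matches of this core and of the PU.1 letters GAGGAAGT overlapped in 1 of 32851 windows. The windows of the 6 genes with the largest increase among those with a core before the start are printed with the core in capitals, as examples of the letters these genes share. A run of capitals longer than the core holds overlapping matches. In GRCm38.p6 they lie at chr3:142559956-142560043 (plus), chr1:174031831-174031939 (minus), chr3:142620555-142620662 (plus), chr12:26456513-26456621 (minus), chr19:34583377-34583485 (plus) and chr11:48871421-48871494 (minus), in the order printed.
Gbp3: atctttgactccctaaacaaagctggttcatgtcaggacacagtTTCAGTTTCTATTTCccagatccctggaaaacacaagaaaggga
Ifi205: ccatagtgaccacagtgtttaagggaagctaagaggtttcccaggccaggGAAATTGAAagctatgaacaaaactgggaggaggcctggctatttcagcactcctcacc
Gbp2: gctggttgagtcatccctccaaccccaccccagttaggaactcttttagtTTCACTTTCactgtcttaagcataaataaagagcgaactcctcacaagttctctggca
Rsad2: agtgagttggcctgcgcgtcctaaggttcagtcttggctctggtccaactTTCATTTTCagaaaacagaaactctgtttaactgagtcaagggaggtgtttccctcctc
Ifit3: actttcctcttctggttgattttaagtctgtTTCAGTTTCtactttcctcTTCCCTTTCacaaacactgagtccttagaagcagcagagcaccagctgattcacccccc
Irgm1: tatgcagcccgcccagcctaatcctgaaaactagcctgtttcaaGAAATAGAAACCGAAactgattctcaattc
The core lay between 16 and 134 bases before the start in these windows. Ear1 and Ear2, which fell, also hold it, and their windows of 109 bases around it were identical at all 109 positions, at chr14:43819688-43819796 (minus) and chr14:44102499-44102607 (plus). The stretch is printed once, since it shows how alike these copies are.
Ear1 and Ear2: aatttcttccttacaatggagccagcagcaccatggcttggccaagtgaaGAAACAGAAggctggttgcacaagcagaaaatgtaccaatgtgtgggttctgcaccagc
The other motifs were also searched on both strands. AP-1 (TGAGTCA) was in 5.93% of the genes that rose, 5.18% of those that fell and 3.77% of those not past the threshold, and the PU.1 letters in 5.87%, 4.24% and 3.77%. The E box of lysosomal genes (TCACGTGA) was in 2.52%, 1.73% and 2.57% of the same groups, a C/EBP palindrome (TTGCGCAA) in 0.503%, 0.223% and 0.361% and a Maf recognition core (TGCTGAC) in 4.25%, 4.79% and 4.36%. Of all genes with a window, tested or not, 5.95% held AP-1, 3.69% PU.1, 1.12% the E box, 0.207% the C/EBP palindrome and 5.28% the Maf core.

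Sensors of microbial products were mixed. Of 33 genes for pattern-recognition receptors and adaptors, 11 rose, 9 fell and 13 were not past the threshold. Tlr1, which pairs with TLR2, had 0.447, 0.286 and 0.262 FPKM in Tumor-AM and 21.5, 18.9 and 18.6 FPKM in Tumor-macrophage. Tmem173, the gene of STING, and Pycard, an inflammasome adaptor, rose by 1.41 and 1.11. Tlr2, Tlr4, Tlr8 and Myd88 fell, with log2 changes of −0.74, −0.91, −0.69 and −0.70. The fungal receptors Clec7a and Clec4n fell from 891 to 414 and from 1096 to 483 FPKM.

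Cytokine genes also divided. Of 27 tested, 15 rose and 9 fell. Il18 and the gene of its soluble inhibitor were opposed, Il18 at 434, 421 and 381 FPKM in Tumor-AM and 26.6, 32.6 and 31.4 FPKM in Tumor-macrophage, and Il18bp at 10.8, 16.5 and 9.05 and 212, 176 and 194 FPKM. Their log2 changes were −3.73 ± 0.1 and 3.93 ± 0.187 (limma adjusted p = 2.8e-08 and 5.97e-07). Il10, an anti-inflammatory cytokine gene, rose from 0.173 ± 0.126 to 5.06 ± 2 FPKM (SD, n = 3), and Ebi3, Tnfsf9 and Gdf3 by 3.09, 3.44 and 4.31. Osm, Il6 and Lif, ligands that signal through gp130, all fell, Osm from 502 to 126 FPKM, Il6 from 17.1 to 3.59 FPKM and Lif from 6.73 to 0.481 FPKM. Il6st, the gene of gp130, fell by 0.77 on the log2 scale. Inhba, the activin A subunit gene, had 39.5, 24.5 and 32.7 FPKM in Tumor-AM and 10.8, 10.9 and 7.52 FPKM in Tumor-macrophage (−1.62 ± 0.192, limma adjusted p = 0.000156). Gdf15 and Tnfsf13, the gene of APRIL, fell, with log2 changes of −1.85 and −1.86. Tnf and Il1b were not past the threshold (0.31 and 0.26), though Il1b was with the replicate block (limma adjusted p = 0.0371). Il1a fell by 1.09.

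The receptors for growth factors of the 2 lineages were opposed. Csf1r, the receptor gene for CSF1, had 153, 101 and 143 FPKM in Tumor-AM and 599, 458 and 539 FPKM in Tumor-macrophage, while Csf2rb, the signalling chain gene of the GM-CSF receptor, had 134, 132 and 145 and 68.8, 55.7 and 58.5 FPKM. Csf2ra, its specific chain, fell from 262 ± 11.8 to 178 ± 8.61 FPKM (SD, n = 3), so it was still abundant in TAMs. Of all 36 cytokine and growth factor receptor genes tested, 11 rose, 14 fell and 11 were not past the threshold. Il21r rose from 3.55 to 54 FPKM and Eng, a co-receptor gene of the TGF-β family, from 2.29 to 17.1 FPKM. Flt1, a receptor gene for VEGF, fell from 10.9 to 0.721 FPKM. Tgfbr2 fell by 0.50, whereas Tgfbr1 was not past the threshold (0.21). Of the activin receptor genes, Acvr1 rose by 0.51 (lost in 10 of 14 alternative settings), Acvr1b fell by 0.58 (lost in 1 of 14), and Acvr2a and Acvr2b were not past the threshold.

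**Figure D3:**
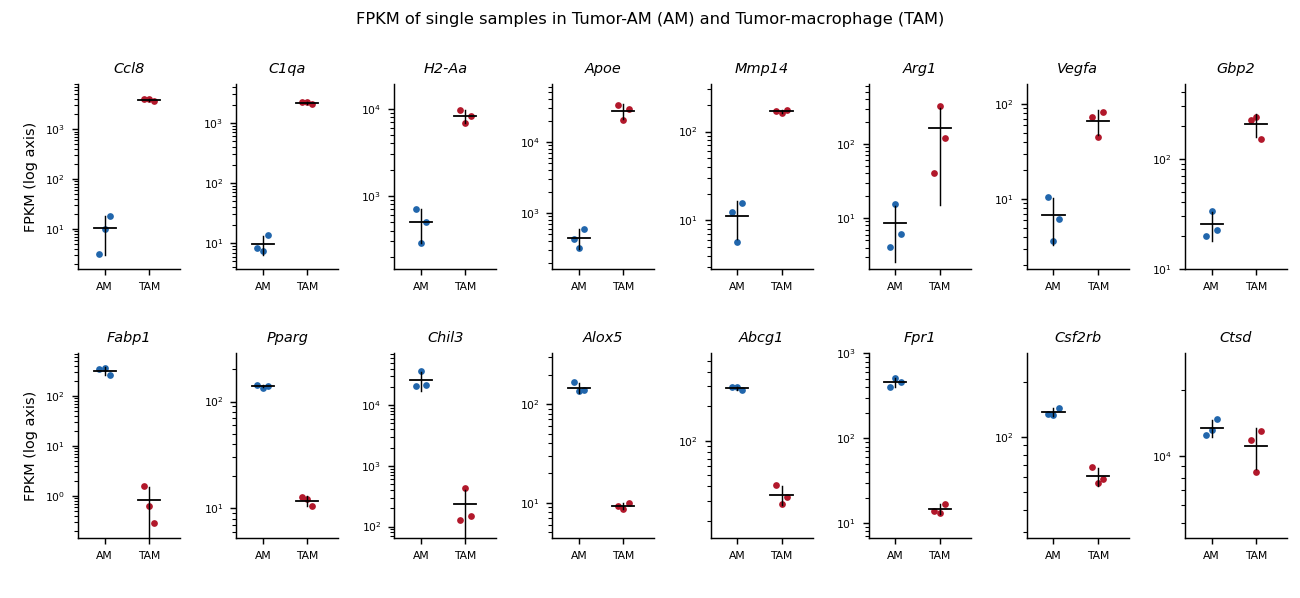
FPKM (log y axes) of 16 genes in the 3 Tumor-AM samples (AM) and the 3 Tumor-macrophage samples (TAM), 1 point per sample, with the mean (horizontal bar) and SD (vertical bar). The 8 genes of the upper row were higher in every TAM sample, the first 7 of the lower row were higher in every AM sample, and Ctsd at the end overlapped.

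Growth and angiogenic factors rose in 14 of 27 cases and fell in 5. Vegfa, the main inducer of vessel growth, had 10.4, 3.63 and 6.13 FPKM in Tumor-AM and 72.4, 44.8 and 82.1 FPKM in Tumor-macrophage, a change of 3.18 ± 0.324 (limma adjusted p = 5.89e-05). Pdgfa and Pdgfb, which act on fibroblasts and pericytes, rose from 0.825 ± 0.419 to 38.8 ± 4.2 and from 0.398 ± 0.0464 to 7.08 ± 0.599 FPKM (SD, n = 3). Thbs1, the gene of thrombospondin 1, an inhibitor of vessel growth, rose too, from 6.5 to 179 FPKM. Igf1 and Hgf rose by 1.45 and 0.97. AMs held more of Spp1 (3744 against 1459 FPKM), the osteopontin gene, of Fn1 (136 against 35.3 FPKM), the fibronectin gene, and of Angptl4, an inhibitor of lipoprotein lipase, which had 205, 185 and 205 and 9.27, 7.74 and 8.84 FPKM. Spp1 was abundant in both populations.

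Matrix proteases and their inhibitors rose in 19 of 26 cases and fell in 5. Mmp14, a membrane-bound collagenase gene, had 12.4, 5.64 and 15.7 FPKM in Tumor-AM and 172, 161 and 173 FPKM in Tumor-macrophage, and Mmp2, which MMP14 activates, had 2.72, 0.901 and 3.74 and 38.7, 22 and 32.2 FPKM. Timp2, which takes part in that activation, rose from 47 ± 12.3 to 257 ± 34.3 FPKM (SD, n = 3). Mmp13, Mmp9 and Mmp12 rose by 4.10, 2.90 and 2.15, and Adam8 by 3.89. Mmp8, Mmp19 and Ctsk, the cathepsin K gene, fell instead, Ctsk from 738 ± 158 to 48.1 ± 13 FPKM (SD, n = 3). These 3 genes were still detectable in TAMs, at means of 5.46, 32.4 and 48.1 FPKM. Mmp8 and Mmp9 are also on the neutrophil marker list, and the part of such cells in their changes was not tested.

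Surface adhesion genes changed in 33 of 35 cases, 22 up and 11 down. Itga9, an integrin chain gene, was at 0.0254, 0 and 0.0537 FPKM in Tumor-AM and 12.1, 13 and 14 FPKM in Tumor-macrophage, Itgb7 rose by 3.06 and the heparan sulfate carrier Sdc4 by 4.01. Itgax, the gene of CD11c, had 159, 123 and 146 and 34.2, 27.5 and 28.9 FPKM. CD11c belongs to the definition of AMs, so this fall is no finding. Itgb2, the chain that pairs with both CD11b and CD11c, fell from 1002 ± 24.7 to 502 ± 14.6 FPKM (SD, n = 3). Cd9 was among the most abundant AM genes, at 5121, 6073 and 5779 FPKM, and had 642, 455 and 777 FPKM in TAMs. The tetraspanins Cd63 and Cd81 rose instead, by 1.24 and 1.06. Cd44 and Cd47, the latter a signal against engulfment, fell, with log2 changes of −1.61 and −1.34.

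Genes otherwise typical of epithelium set AMs apart. Of 14 tested, none rose, 10 fell and 4 were not past the threshold. Cdh1, the E-cadherin gene, had 12.9, 26.1 and 11.5 FPKM in Tumor-AM and 0.876, 1.58 and 1.33 FPKM in Tumor-macrophage. Ocln, a tight junction gene, and Perp, a desmosome gene, fell from 9.06 to 0.107 and from 101 to 0.304 FPKM. Epcam fell from 10.5 ± 7.43 to 0.462 ± 0.476 FPKM (SD, n = 3). Krt8, a keratin gene of many epithelia, was at 1.74 and 1.01 FPKM and not past the threshold.

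Uptake receptors were divided between the populations. Of 39 scavenger receptors and lectins, 12 rose, 21 fell and 6 were not past the threshold. Stab1 had 0.166, 0.338 and 0.375 FPKM in Tumor-AM and 55.2, 52.4 and 51.4 FPKM in Tumor-macrophage, and Mgl2, a galactose-type lectin gene, had 2.77, 1.96 and 3.43 and 113, 106 and 143 FPKM. Msr1, the scavenger receptor A gene, rose from 60.6 ± 8.59 to 305 ± 69 FPKM (SD, n = 3). Marco, of the same receptor class, went the other way, with 60.2, 329 and 95.3 FPKM in Tumor-AM and 5.76, 9.65 and 4.42 FPKM in Tumor-macrophage. The spread among its AM samples was wide, and its change of −4.09 ± 0.54 was past the threshold (limma adjusted p = 0.000295). Ly75 and Olr1, an oxidized LDL receptor gene, fell from 34.1 to 1.1 and from 106 to 5.86 FPKM, and Trem1, an amplifier of inflammation, from 212 to 24.6 FPKM. Mrc1, the mannose receptor gene, and Cd36 fell, with log2 changes of −0.95 and −0.91, Cd36 being lost in 3 of 15 alternative settings. Cd68 was not past the threshold, at 1593 ± 63.5 and 1760.2 ± 90.2 FPKM (SD, n = 3), except with quantile normalization (−0.24, limma adjusted p = 0.0368).

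For the uptake of dying cells, bridging proteins and receptors were each split between the populations. Gas6, which links phosphatidylserine on dying cells to receptor kinases of macrophages, had 0.109, 0.368 and 1.44 FPKM in Tumor-AM and 43.8, 47.1 and 46.7 FPKM in Tumor-macrophage. The kinases Axl and Mertk fell from 303 ± 27 to 136 ± 22.6 and from 106 ± 9.13 to 40.6 ± 7.98 FPKM (SD, n = 3), and Pros1, the gene of the other bridging ligand, protein S, from 155 ± 2.4 to 30.8 ± 3.82 FPKM. Timd4, a phosphatidylserine receptor gene, rose by 1.75 to a low mean of 2.96 FPKM, and Havcr2 by 0.42. Of all 29 genes of this list, 14 rose and 9 fell. Rac2 and Dock2 of the engulfment machinery were not past the threshold (0.19 and 0.13).

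Lipid storage was lower in TAMs for 18 of 27 genes and higher for 7 (median −1.18). Cidec, which fuses lipid droplets, had 227, 288 and 204 FPKM in Tumor-AM and 0, 0 and 0.59 FPKM in Tumor-macrophage (−7.67 ± 0.204, limma adjusted p = 2.79e-08). Fabp1, a fatty acid carrier gene, had 347, 371 and 260.4 and 1.58, 0.616 and 0.282 FPKM. Dgat2, which makes triglyceride, fell from 124 ± 10.5 to 7.15 ± 1.46 FPKM, Mgll, which breaks down monoglyceride, from 41.3 ± 1.23 to 1.27 ± 0.634 FPKM, and Lpl, the lipoprotein lipase gene, from 807 ± 85 to 74.9 ± 16.5 FPKM (SD, n = 3). Plin2, the general droplet coat gene, fell by 1.18 but stayed at 664 FPKM in TAMs. Those that rose were Acsl3, Lpin2, Lipe, Fabp5, Agpat2, Acsl1 and Acsl4, by 0.40 (Acsl4, lost in 5 of 15 alternative settings) to 1.48 (Acsl3).

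Fatty acid oxidation genes of mitochondria and peroxisomes fell in 29 of 36 cases and rose in 1 (median −0.74), and 0 rose with the replicate block. Acaa1b, a peroxisomal thiolase gene, had 58.9, 72.7 and 53.9 FPKM in Tumor-AM and 0.184, 0 and 0 FPKM in Tumor-macrophage. Cpt1a and Cpt2, which carry fatty acids into mitochondria, fell, with log2 changes of −1.29 and −1.97, and the trifunctional enzyme genes Hadha and Hadhb fell, with log2 changes of −0.77 and −1.03. Pdk4, which spares glucose when fat is burned, was at 5.3, 9.95 and 5.29 FPKM in Tumor-AM and 0.0277, 0 and 0 FPKM in Tumor-macrophage. Acadl was not past the threshold (0.17).

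Fatty acid and sterol synthesis followed, with 29 of 34 genes lower and 2 higher (median −0.83). Mvd, an enzyme of the mevalonate pathway, had 74.1, 56.8 and 78.9 FPKM in Tumor-AM and 11.7, 14.4 and 10.7 FPKM in Tumor-macrophage. Hmgcs1, Idi1, Cyp51 and Sqle fell, with log2 changes of −1.49, −1.43, −1.40 and −1.28. The sterol-sensing factor Srebf2 fell by 0.42 and Srebf1 fell by 0.83. Fads1, which introduces double bonds into polyunsaturated fatty acids, was the large exception, at 5.64, 6.6 and 6.49 and 38.6, 35 and 35 FPKM.

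Genes of cholesterol efflux split. Of 22 tested, 10 rose and 6 fell. Apoe, whose product accepts cholesterol, had 429, 324 and 601 FPKM in Tumor-AM and 33190.0, 20709 and 29660.0 FPKM in Tumor-macrophage, a change of 5.96 ± 0.244 (limma adjusted p = 2.75e-07). Ctrl-AM had 126 ± 51.4 FPKM (SD, n = 3). Its neighbours within 27.6 kb of chromosome 7 (19671579 to 19699188, GRCm38) did not move together. Apoc2 and Apoc4 rose by 4.66 and 2.67, whereas Apoc1, next to Apoe, fell from 28.5 ± 3.3 to 6.79 ± 1.04 FPKM (SD, n = 3). The transporters were opposed as well. Abca1, which loads apolipoproteins, had 10.7, 7.67 and 6.48 and 32.3, 22.4 and 29.5 FPKM, and Abcg1, which loads HDL particles, had 293, 295 and 279.6 and 40.8, 28.2 and 32.2 FPKM. Nr1h2, the gene of an LXR receptor that drives both transporters, was not past the threshold, at 32.6 and 31.1 FPKM.

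**Figure D4:**
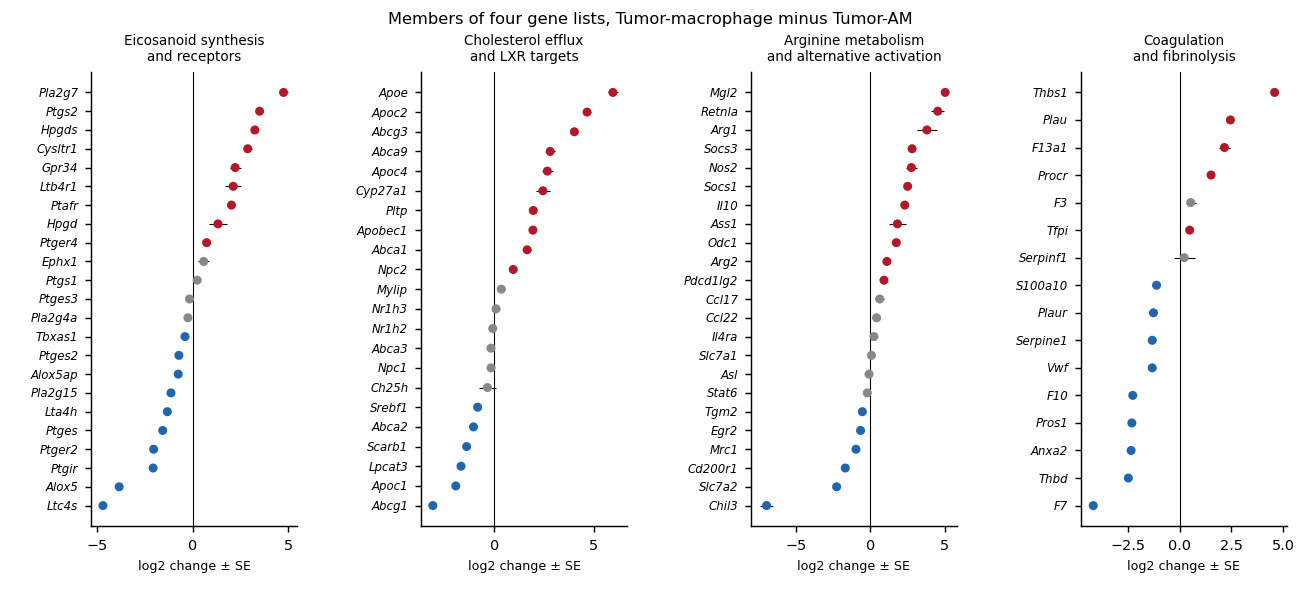
Log2 change (Tumor-macrophage minus Tumor-AM, x axes) with SE of each gene tested in 4 lists, coloured red where higher, blue where lower and grey where not past the threshold. Each list runs from strong increases (Pla2g7, Apoe, Mgl2, Thbs1) to strong decreases (Ltc4s, Abcg1, Chil3, F7).

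Lysosomal genes differed gene by gene. Of 53 tested, 25 rose and 16 fell (median 0.21). Ctsb, the cathepsin B gene, had 723, 701 and 783 FPKM in Tumor-AM and 3059.7, 2731 and 3251 FPKM in Tumor-macrophage, and Lgmn, the legumain gene, had 209.5, 234 and 252 and 1277, 1409.6 and 1342 FPKM. Ctsd, the most abundant of them, overlapped between the groups, at 12440.0, 13150.0 and 14776 and 11801, 8496 and 12977 FPKM, and was not past the threshold, except with quantile normalization (−0.89, limma adjusted p = 0.000292). Atp6v0d2, a subunit gene of the proton pump, fell from 744 ± 39 to 72.9 ± 18.6 FPKM (SD, n = 3), but the common subunit Atp6v0d1 fell by 0.37 only and Atp6v1a rose by 0.40. Lipa and Pla2g15, lipases of the lysosome, fell, with log2 changes of −1.08 and −1.13.

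Glycolysis and hypoxia genes rose in 22 of 32 cases and fell in 5. Hk3, a hexokinase gene of myeloid cells, had 16.9, 22.6 and 17.7 FPKM in Tumor-AM and 100.3, 114 and 76.5 FPKM in Tumor-macrophage. Pfkl, Tpi1, Pgk1, Pgam1 and Eno1, enzymes along the pathway, rose by 1.28, 1.24, 1.11, 0.82 and 0.60, and the glucose and lactate carriers Slc2a1 and Slc16a3 by 0.93 and 0.94. Bnip3, a hypoxia target, rose by 1.66, while the related Bnip3l fell by 1.47 on the log2 scale. Aldoc fell, with a log2 change of −2.03, and of 2 related regulators of the pathway Pfkfb4 fell, with a log2 change of −1.77, where Pfkfb3 rose by 1.44. Aldoa and Gapdh, abundant enzymes of the pathway, were not past the threshold (−0.12 and 0.28), though Gapdh was with the replicate block (limma adjusted p = 0.0291). By contrast, 64 of 75 subunit genes of the mitochondrial respiratory chain were not past the threshold, 2 rose and 9 fell, where 45.1% of all genes were past it. The largest change among them was that of Ndufa4, from 428 ± 59.2 to 237 ± 29.2 FPKM (SD, n = 3).

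Iron and redox genes showed 12 increases and 15 decreases among 39. Slc11a1, a metal transporter gene of phagosomes, had 8.66, 19.3 and 17.7 FPKM in Tumor-AM and 463, 416 and 447 FPKM in Tumor-macrophage (4.84 ± 0.245, limma adjusted p = 8.82e-07). Transport was not measured. Cp, the ceruloplasmin gene, and Slc11a2, an iron importer gene, rose by 3.48 and 1.68. Ftl1, the ferritin light chain gene, fell from 41949 ± 8977 to 23301 ± 1101 FPKM (SD, n = 3), a change lost in 1 of 15 alternative settings, while the heavy chain gene Fth1 was not past the threshold (−0.24), except with quantile normalization (−0.62, limma adjusted p = 0.000857). Hmox1, which degrades heme, fell from 1572 ± 599 to 630.0 ± 168 FPKM. Of glutathione genes, Gsr fell from 181 ± 36.5 to 21 ± 0.846 FPKM and Gstm1 from 724 ± 121 to 131 ± 39.4 FPKM (SD, n = 3). Cybb, the oxidase subunit gene, was not past the threshold, at 388 and 358 FPKM.

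Genes of arginine metabolism and alternative activation, listed together, did not move as a group, with 11 higher and 6 lower of 23. Arg1, the arginase gene, had 4.09, 15.3 and 6.15 FPKM in Tumor-AM and 40.8, 325 and 119.7 FPKM in Tumor-macrophage, with a wide spread among the TAM samples but no overlap (3.81 ± 0.683, limma adjusted p = 0.00177). Retnla had 0.222, 2.45 and 0 and 26.3, 56.1 and 33.1 FPKM. Nos2, the inducible nitric oxide synthase gene, which competes with arginase for arginine, rose in the same samples, from 0.252 ± 0.158 to 8.59 ± 5.92 FPKM (SD, n = 3). Chil3, a chitinase-like gene also used as a marker of this state, had 20425, 36468 and 21806 FPKM in Tumor-AM and 128, 430.4 and 150.2 FPKM in Tumor-macrophage (−6.96 ± 0.424, limma adjusted p = 2.39e-06). Odc1, the polyamine enzyme gene, and Socs3, a feedback inhibitor, rose by 1.76 and 2.82. Slc7a2, an arginine importer gene, fell by 2.25 on the log2 scale.

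Genes of lipid mediators were divided, also within pathways. Of 23 genes, 9 rose and 10 fell. The leukotriene enzymes all fell. Alox5, the 5-lipoxygenase gene, had 167, 135 and 139 FPKM in Tumor-AM and 9.22, 8.72 and 9.85 FPKM in Tumor-macrophage, and Ltc4s, which makes leukotriene C4, had 221, 308 and 313 and 9.46, 10.4 and 9.49 FPKM. Lta4h and Alox5ap fell, with log2 changes of −1.32 and −0.75. The receptors for these products rose, with Cysltr1 from 1.7 to 18.7 FPKM and Ltb4r1 from 0.793 to 8.26 FPKM. Ptgs2, the inducible cyclooxygenase gene, had 2.17, 1.03 and 1.58 and 28.2, 23.3 and 33.5 FPKM, Hpgds, which makes prostaglandin D2, rose by 3.26, and Ptges, which makes prostaglandin E2, fell by 1.56. Pla2g7, which degrades platelet-activating factor, rose from 24.1 ± 9.07 to 649 ± 21.3 FPKM (SD, n = 3), and its receptor gene Ptafr by 2.03. Mast cells also make Hpgds. Their gene Cpa3 rose, while Tpsb2, untested, was uneven in Tumor-macrophage, at 0, 20.4 and 4.01 FPKM. The part of mast cells in this was not tested.

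Coagulation factors were mostly AM genes, with 9 of 16 lower and 5 higher. F7 had 419.8, 414 and 379 FPKM in Tumor-AM and 27.5, 21.5 and 17.3 FPKM in Tumor-macrophage, and F10, which it activates, had 73.3, 79.7 and 71.8 and 15.1, 15.9 and 13.8 FPKM. Thbd, the gene of the anticoagulant receptor thrombomodulin, fell by 2.47 on the log2 scale. F13a1, whose product cross-links fibrin, rose from 14.1 ± 2.68 to 69.7 ± 28.8 FPKM (SD, n = 3). For fibrinolysis, Plau, the urokinase gene, rose from 0.334 to 6.22 FPKM, whereas its receptor gene Plaur fell from 1294 to 540.2 FPKM.

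Genes of contact with T cells rose in 14 of 24 cases and fell in 7. Cd72, a lectin gene of antigen-presenting cells, had 2.02, 2.1 and 2.29 FPKM in Tumor-AM and 285, 306 and 302 FPKM in Tumor-macrophage, and Slamf7 rose by 4.11. Cd72 is also a B cell gene. B cell markers rose in the same samples, as given above, and their part in this was not tested. The ATP-degrading enzyme gene Entpd1 rose by 1.94, while Nt5e, which completes the step to adenosine, fell by 1.48. Cd274, the gene of PD-L1, fell by 0.25 (lost in 6 of 15 alternative settings), and Pdcd1lg2, the gene of PD-L2, rose by 0.93. Cd200 and its receptor gene Cd200r1, a pair that restrains macrophages, fell from 35.7 ± 3.35 to 2.19 ± 0.999 and from 74.9 ± 4.61 to 23 ± 3.08 FPKM (SD, n = 3).

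Cell cycle genes rose in 15 of 39 cases and fell in 2. Top2a, a marker of dividing cells, had 8.04, 6.1 and 7.46 FPKM in Tumor-AM and 14.4, 14.9 and 13.7 FPKM in Tumor-macrophage (0.91 ± 0.123, limma adjusted p = 0.000329), but Mki67 was not past the threshold, at 2.11, 2.23 and 2.59 and 2.99, 2.94 and 3.02 FPKM. Cyclin D genes were exchanged. Ccnd1 had 0.313, 0.667 and 0.508 FPKM in Tumor-AM and 10.9, 12.6 and 10.9 FPKM in Tumor-macrophage, and Ccnd2 had 40.9, 47.8 and 39.2 and 4.86, 7.45 and 5.15 FPKM. Immediate-early genes, which can be raised by tissue dissociation, rose in 14 of 26 cases and fell in 4, with Egr1 at 1.73 and Hspa1a at 2.25, and their part in the other differences was not tested. Genes of cytosolic ribosomal proteins rose slightly in 28 of 58 cases and fell in none (median 0.25, at most 0.62, for Rpl3), and 39 rose with the replicate block.

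Of 22 tested genes of the Ear ribonuclease, Ms4a and Ly6 families, 14 rose, 6 fell and 2 were not past the threshold, and neighbouring copies could move in opposite directions. On chromosome 19, 8 Ms4a genes tested lie between 11067471 and 11604849 (GRCm38). Ms4a7, a macrophage gene of the family, had 16.2, 10.7 and 17.1 FPKM in Tumor-AM and 873, 791 and 976 FPKM in Tumor-macrophage, and Ms4a6b, Ms4a4c and Ms4a6c rose by 5.33, 3.76 and 2.94. Ms4a8a alone fell, with 229, 325 and 267 and 5.34, 17.6 and 10.6 FPKM. Of the Ly6 family, Ly6a and Ly6i rose from 16.8 ± 4.66 to 533 ± 247 and from 4.21 ± 2.07 to 85.1 ± 20.2 FPKM, and Ly6e by 1.60. Of the ribonucleases, Ear2 fell from 2758 ± 334 to 20.7 ± 12 FPKM and Rnase6 from 68 to 15.4 FPKM, whereas Rnase4 rose by 0.62. Copies within these families are similar, and how reads were shared between them was not stated.

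**Figure D5:**
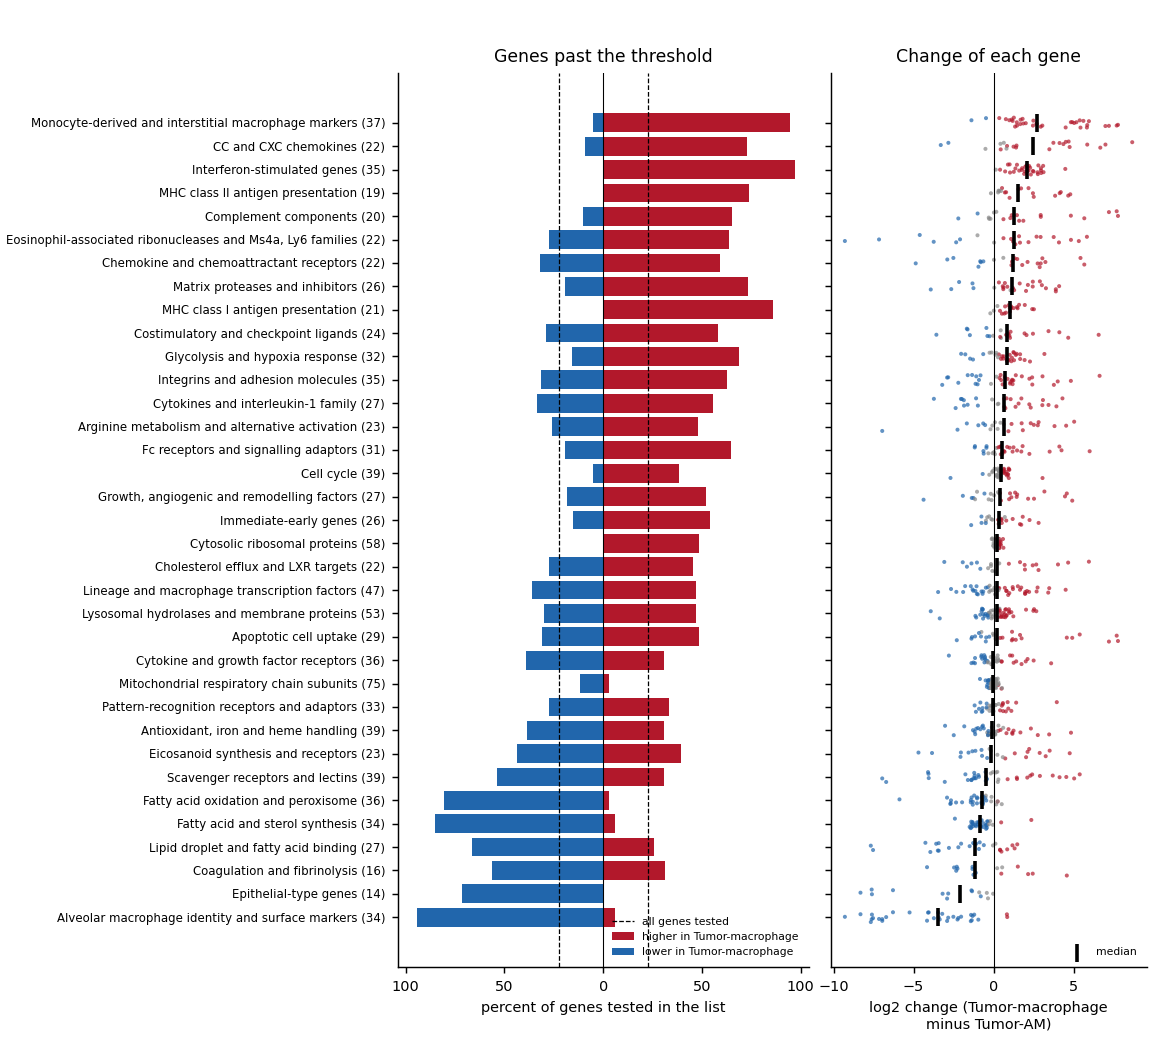
Left, the percent of tested genes in each of 35 lists that were higher (red) or lower (blue) in Tumor-macrophage, with dashed lines at the 22.9% and 22.2% of all genes. Right, the log2 change of each gene and the median (black bar), from −3.45 for AM identity genes to 2.69 for monocyte-derived and interstitial macrophage genes.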

How the data were processed

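RNA of sorted mouse lung macrophages had been amplified with SMART-Seq HT, made into Nextera libraries and sequenced as single-end reads. The authors aligned the reads to mm10 with TopHat2 (2.1.1 in the submitters' notes) and Bowtie2 and deposited 1 FPKM value per gene symbol and sample. Their methods name Cufflinks and their notes name Cuffdiff 2.2.1. The annotation, the use of strand and the treatment of reads with several matches are not given in the sources used here. Plain FPKM are relative to the mapped reads of their own sample, so that a large rise of a few genes lowers the others. Whether the deposited values were also scaled between samples is not stated. Their median-ratio factors were 0.9945 to 1.0117 in the 6 samples, so the median-ratio alternative could change little.

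Here genes with an FPKM of 1 or more in 3 or more of the 6 samples were kept, and log2(FPKM + 1) was fitted with limma 3.58.1 (R 4.3.3; 2 group means, intensity trend, two-sided, Benjamini-Hochberg over all 10410 genes, threshold 0.05). The fit was tested on simulated data. Python 3.11.15 with numpy 2.4.6, pandas 2.3.3 and matplotlib 3.10.9 made the summaries and plots. Read depth was estimated from low values, since 1 read is worth 1 step: 55.4 to 58.1% of ratios of values under 0.5 FPKM lay within 0.004 log2 of ratios of whole reads, against 0.934 to 1.11% on displaced grids. This was too few to recover counts, so no count test was run.

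The 44 gene lists, 35 of functions and 9 of other cell types, and the motifs were chosen with earlier results of these data known. Of 1181 listed symbols 1171 were found and 999 tested. A few members enter the counts but are not reported here by name. Genes named are the 12 largest changes in each direction (mean of at least 10 FPKM, no overlap, no microRNA, small nucleolar or unnamed genes), the lead genes and largest changes of each list, and other members beside their counts. Positions are GENCODE vM21 (GRCm38), which held 95.74% of the symbols.

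Replicate numbers were checked for pairing. Deviations from the group means correlated at 0.126, 0.182 and 0.165 between samples of the same number and at −0.124 to −0.0288 between others. Deviations within a group cancel out, so positive values for some pairs bring negative ones for others, and the contrast is partly arithmetic. Because the same-number values were positive, the fit with the number as a block is given where it changed the call of a named gene or moved a count by over 1.5 times. No source states that the pairs shared a mouse. Alternatives were another pseudocount, filters, scalings, all 9 samples, a constant prior variance, the block, stricter thresholds and leaving out each sample.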

Additional observations from a re-analysis of the deposited data

How the results depend on the processing

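Of 4698 genes past the threshold, 1813 (994 higher, 819 lower) also changed by at least 2-fold. Over the other alternatives the number lay between 3373 (adjusted p under 0.01) and 5122 (all 9 samples sharing the spread), and between 4021 and 4439 with 1 sample left out, of which 2051 to 2241 were higher and 1969 to 2198 lower. The fit with the replicate number as a block gave 4828, of which 4556 were shared with the same direction. It moved list counts by over 1.5 times for the respiratory chain (higher 4 in place of 2), T and NK markers (higher 7 in place of 4), fibroblast markers (lower 4 in place of 1) and fatty acid oxidation (higher 0 in place of 1). Over all genes the median change moved to −0.081 after rescaling to TPM and to −0.031 after quantile normalization.

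Of 312 named genes past the threshold, 300 stayed past it in the same direction in each alternative fit that held the gene. The stricter thresholds (adjusted p under 0.01, at least 2-fold) were applied to counts only, not to single genes. The others were Acsl1, Acsl4, Acvr1, Acvr1b, C1s1, Cd274, Cd36, Cxcl1, Cxcl2, Ftl1, H2-D1 and Lyve1. Leaving out Tumor-macrophage replicate 2 brought Sftpc past the threshold (−1.79), which was otherwise not. Directions turned for genes that were not past the threshold in the main comparison. C5ar1 had −0.073 after rescaling to TPM, −0.049 with quantile normalization and −0.038 to 0.15 with a sample left out. Tyrobp had −0.061, −0.65 and −0.012 to 0.073 in the same settings, and Cd68 had −0.24 with quantile normalization. Krt8 had −0.91 to 0.0063 and Nr1h2 −0.16 to 0.017 with a sample left out. With no filter the coagulation list had a median of 0.16, where genes near 0 entered. In 4 of 35 functional lists, which were pattern receptors, cytokine receptors, antioxidant and iron genes, and eicosanoids, the larger of the higher and lower counts changed side under some alternative. Depth limits genes near 1 FPKM.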
